A study of Homo sapiens with 9 samples.

Results

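The EGFR family comprises a set of receptor tyrosine kinases and the growth factors that bind them. The 10 genes described here are the receptors EGFR, ERBB2, ERBB3 and ERBB4 and the ligands HBEGF, AREG, EREG, TGFA, BTC and EPGN, taken by symbol from the 58219 genes counted. They were measured by RNA sequencing in the human hepatoma line PLC/PRF/5, into which the SRC-family tyrosine kinase YES had been stably introduced. In 4 samples the introduced YES was wild type (WT). In the other 5 it carried the gatekeeper mutation T348I, a change in the drug-binding pocket. All 9 samples were treated with dasatinib, an inhibitor of SRC-family kinases, at 100 nM, so the controls carried an introduced YES and the drug as well. Samples without dasatinib or without introduced YES were not analysed here. Whether each line was a single clone or a pool is not stated in the sources used here, nor whether replicate samples were grown as separate cultures. The spread behind the p-values is therefore that of these 9 samples and may be technical.

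EGFR family ligands are made as membrane-bound precursors, cut from the cell surface by proteases, and then bind receptors on the same or neighbouring cells. AREG, EREG, HBEGF, TGFA, BTC and EPGN all bind EGFR, and some of them also bind ERBB4. Ligand binding pairs receptors, switches on their kinase domains and recruits adaptors that lead to the RAS to ERK and PI3K to AKT pathways. ERBB2 has no known ligand of its own, and ERBB3 binds neuregulins and has little kinase activity, so each works mainly as a partner of another receptor. Hepatocytes are known to express EGFR and ERBB3.

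Reads assigned to genes numbered 10381142 to 15799059 per sample. The sample titles spell the drug either as dasatinib (3 samples of each group) or as Dasa (1 WT and 2 T348I samples), and the labels do not say what the spelling stands for. The 2 spellings are called sets here and were entered as a term in the tests. Mitochondrial genes held 7.38% to 9.44% of gene reads in the dasatinib set and 15.2% to 17.0% in the Dasa set. YES1, whose count does not separate the introduced from the cell's own copy, stood at 341 to 368 CPM (counts scaled to a common library size, adjusted by TMM) in the 4 WT samples. It stood at 553 to 605 CPM in the T348I samples of the dasatinib set and at 974 and 1032 CPM in those of the Dasa set. Of 10 hepatocyte markers 9 passed the filter on low counts and 7 of them were called lower in T348I and 0 higher by edgeR, also 0 at an unadjusted p under 0.05. Of all genes tested, 21.8% were called lower and 20.7% higher. In the dasatinib set alone 4 of the markers were called lower and 2 higher, beside 17.1% and 18.5% of all genes tested there. The count of 7 thus rests in part on the Dasa set with its 1 WT sample. The summed level of the 10 hepatocyte markers was 6461 to 9530 CPM in WT and 5751 to 7503 CPM in T348I. APOB had a mean of 3175 and 3103 CPM, while ALB had 3.95 and 2.49 CPM and TTR was under 1 CPM in both groups. Of the 5 markers each of leukocytes, endothelium and fibroblasts, 4 per list were under 1 CPM in both groups. The remaining fibroblast marker, the collagen gene COL1A1, was higher in T348I (3.72 ± 1.87 and 5.91 ± 1.95 CPM, log2 fold change 0.52, edgeR adjusted p = 0.00485). In the leukocyte list LYZ carried nearly all of the summed level of 803 to 1404 CPM. The part of hepatocyte marker levels, mitochondrial share and YES1 level in the results that follow was not tested.

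AREG and EREG made up nearly all of the family's ligand RNA. Each of them, and the less abundant HBEGF, was higher in every T348I sample than in any WT sample, as were 10.2% of all genes tested. EGFR, ERBB2 and ERBB3 were lower on average in T348I. Among all 14617 genes tested, 42.5% were called, 20.7% higher in T348I and 21.8% lower (edgeR, Benjamini-Hochberg adjusted p at a threshold of 0.05). Against that background, 6 of the 10 family genes had enough reads to be tested, and HBEGF, AREG and EREG were called higher and the 3 receptors EGFR, ERBB2 and ERBB3 lower. The remaining 4, namely TGFA, BTC, EPGN and ERBB4, were below the filter. In bulk samples, a change in the number of expressing cells and a change in RNA per cell cannot be told apart.

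HBEGF encodes heparin-binding EGF-like growth factor, a ligand of EGFR and ERBB4 and the cell-surface receptor for diphtheria toxin. The gene lies at chr5:140332843-140346631 on the minus strand (GRCh38, GENCODE 29). Its level was 3.29, 3.93 and 3.45 CPM in the WT samples of the dasatinib set and 2.88 CPM in the WT sample of the Dasa set. The T348I dasatinib samples had 12.03, 12.1 and 10.2 CPM, and the T348I Dasa samples 22.1 and 21.96 CPM. The groups did not overlap, and within T348I the Dasa samples lay well above the dasatinib samples. Every T348I sample was above every WT sample in 10.2% of all genes tested. The mean over the 4 WT samples was 3.39 ± 0.434 CPM (SD) and that over the 5 T348I samples 15.7 ± 5.84 CPM (SD). HBEGF rose by 2.08 on the log2 scale (SE 0.155, 95% interval 1.76 to 2.41, edgeR adjusted p = 2.37e-09), or 4.23-fold. HBEGF was the least abundant of the 6 tested genes, with 38 to 51 reads in each WT sample and 119 to 325 in each T348I sample. By size of change in either direction it ranked 144 of the 14617 genes.

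AREG encodes amphiregulin, an EGFR ligand, and had the smallest spread relative to its mean of the 3. It was at 131, 138 and 133 CPM in the WT dasatinib samples and 124 CPM in the WT Dasa sample. The T348I dasatinib samples had 257, 279 and 274 CPM, and the T348I Dasa samples had 263 CPM each. All T348I samples were thus close to one another and about as far above WT in either set. Mean levels were 131 ± 5.69 CPM in WT and 267 ± 9.12 CPM in T348I (SD over 4 and 5 samples). On the log2 scale AREG rose by 1.04 (SE 0.0378, 95% interval 0.96 to 1.12, edgeR adjusted p = 3.84e-14), or 2.05-fold.

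EREG encodes epiregulin, which binds EGFR and ERBB4. Its level was 299, 286 and 287 CPM in the WT dasatinib samples and 259 CPM in the WT Dasa sample. The dasatinib samples of T348I were at 506, 520 and 493 CPM and its Dasa samples at 601 and 592 CPM. The groups were apart in both sets, and more so in the Dasa set, where WT was lowest and T348I highest. Mean EREG levels were 283 ± 17.1 CPM in WT and 542 ± 50.4 CPM in T348I (SD over 4 and 5 samples), a rise of 0.92 on the log2 scale (SE 0.0563, 95% interval 0.80 to 1.04, edgeR adjusted p = 1.24e-10), or 1.89-fold.

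**Figure D1:**
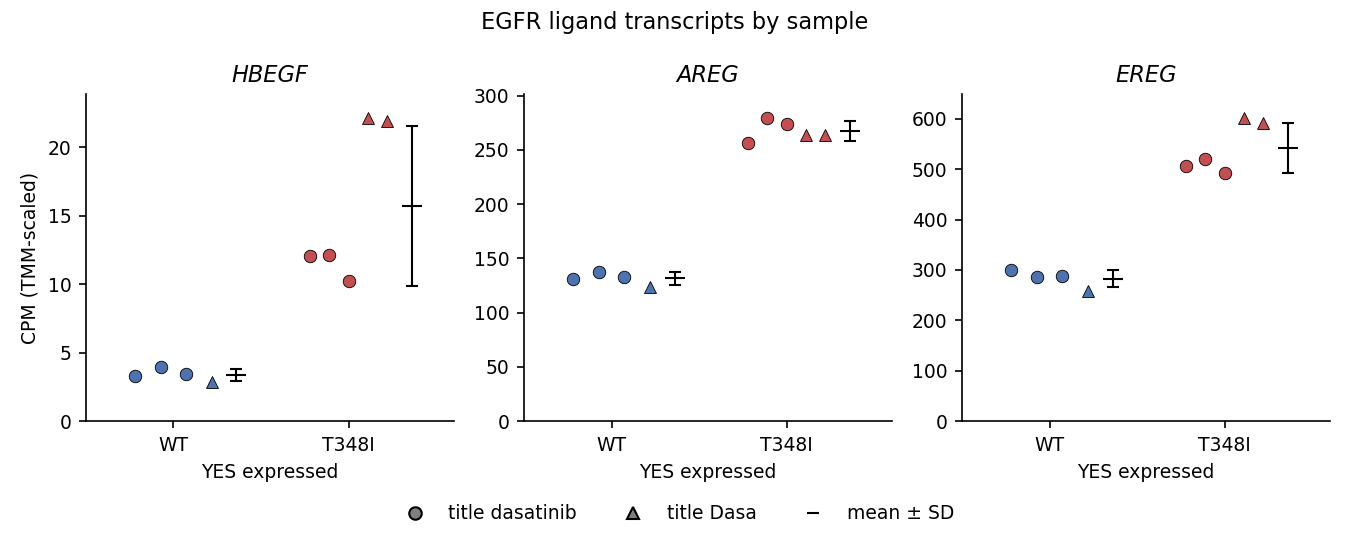
Level of each ligand in each sample, in CPM on a linear axis, by group and by spelling of the drug in the title, with the mean and SD of each group; ligands below the filter on low counts are not drawn. The 5 T348I samples lie above the 4 WT samples for HBEGF, AREG and EREG, and for HBEGF the Dasa samples of T348I, at 22.1 and 21.96 CPM, lie apart from the dasatinib samples at 10.2 to 12.1 CPM.

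AREG and EREG are neighbours in the genome. EPGN (chr4:74308473-74315307, plus strand), EREG (chr4:74365143-74388751, plus strand), AREG (chr4:74445134-74455009, plus strand) and BTC (chr4:74744759-74794686, minus strand) span 486.214 kb on GRCh38, a stretch in which these are the only 4 protein-coding genes of the 6 annotated. EREG ends 56.38 kb before AREG, EPGN ends 49.84 kb before EREG, and AREG ends 289.7 kb before BTC. The inner pair rose in T348I, while the outer pair, EPGN and BTC, were below 1 CPM in all samples. The promoters of the pair that rose are shown because both genes moved in the same direction from the same locus. They run from 250 bases before to 50 bases after the start of transcription, from RefSeq on GRCh38.p14, at chr4:74444886-74445185 for AREG and chr4:74364895-74365194 for EREG, both on the plus strand. Capitals mark the matches to the motifs named after them.
AREG: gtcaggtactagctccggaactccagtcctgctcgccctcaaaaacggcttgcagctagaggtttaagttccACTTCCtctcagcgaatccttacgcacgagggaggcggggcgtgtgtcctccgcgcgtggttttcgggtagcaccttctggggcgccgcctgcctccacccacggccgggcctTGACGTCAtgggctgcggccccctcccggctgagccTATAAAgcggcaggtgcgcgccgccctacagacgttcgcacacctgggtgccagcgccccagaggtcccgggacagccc
EREG: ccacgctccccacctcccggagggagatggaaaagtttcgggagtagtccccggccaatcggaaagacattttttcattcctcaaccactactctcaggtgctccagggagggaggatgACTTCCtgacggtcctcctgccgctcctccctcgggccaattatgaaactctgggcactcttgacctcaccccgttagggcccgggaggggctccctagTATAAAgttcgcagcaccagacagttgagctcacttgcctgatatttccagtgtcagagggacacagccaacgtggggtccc
The 5 motifs were searched on both strands and chosen with these sequences in view. They were the AP-1 site TGANTCA, the cAMP response element TGACGTCA, the TATA box TATAAA, the ETS core GGAAGT and the CArG box. Both promoters hold a TATA box, first base at -29 in AREG and -32 in EREG counted from the start of transcription, and an ETS core on the opposite strand, at -178 and -131. Only AREG of the 2 holds the cAMP response element, at -65. Of 35116 RefSeq promoters of the same length, 11.5% hold the TATA box letters, 22.8% the ETS core, 1.85% the cAMP response element, 7.71% the AP-1 site and 1.29% the CArG box. Neither the AP-1 site nor the CArG box was matched in either window, and none of the 5 motifs in that of HBEGF. The EPGN promoter also has a TATA box, at -29. Some of these motifs are also in promoters of EGFR and ERBB2, which were lower in T348I. The EGFR promoter at chr7:55109589-55109888 has TATA boxes at -146 and -36 and AP-1 sites at -232 and -136. That at chr7:55018767-55019066 has none of the 5 motifs. The ERBB2 promoter has ETS cores at -227, -27 and -12 and an AP-1 site at -222. RefSeq promoters were matched for 9 of the 10 genes.

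The other 3 ligands were close to the limit of detection. TGFA, which encodes transforming growth factor alpha (chr2:70447280-70554193, minus strand), had 7 reads over the 4 WT samples, a pooled level of 0.131 CPM (95% exact Poisson interval 0.0526 to 0.269, counting error only). Over the 5 T348I samples it had 18 reads, 0.275 CPM (0.163 to 0.435), of which 10 came from the second Dasa sample. BTC, which encodes betacellulin, had 20 reads in WT, 0.374 CPM (0.228 to 0.577), and 17 in T348I, 0.26 CPM (0.151 to 0.416). The intervals of the groups overlap for both genes, and a difference was not detectable at this depth. EPGN, which encodes epigen, had 1 read in WT and 2 in T348I.

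Among the receptors, ERBB3 fell most. It stood at 324, 321 and 313 CPM in the WT dasatinib samples and 452 CPM in the WT Dasa sample. The dasatinib samples of T348I had 238, 224 and 248 CPM, and its Dasa samples 199.8 and 207 CPM. All 5 T348I samples were below all 4 WT samples, a pattern seen in 9.41% of genes, and the WT Dasa sample was far above the other WT samples. Mean levels were 353 ± 66.3 CPM in WT and 223 ± 20.3 CPM in T348I (SD over 4 and 5 samples), and the log2 fold change was -0.67 (SE 0.0842, 95% interval -0.84 to -0.49, edgeR adjusted p = 3.14e-06), a change of -37.0%. Without the WT Dasa sample the log2 fold change of ERBB3 was -0.43 and the call was kept. With that sample left out, the set term takes up the T348I Dasa samples, so this fold comes from the dasatinib samples.

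EGFR, the receptor of all 6 ligands, lies at chr7:55019021-55211628 on the plus strand. It was at 293, 301 and 287 CPM in the WT dasatinib samples and 381 CPM in the WT Dasa sample. The T348I dasatinib samples were at 248, 217 and 234 CPM and the T348I Dasa samples at 282 and 288 CPM. Within each set T348I was below WT, but across sets the groups met: 4 of the 5 T348I samples were below all WT samples. Mean EGFR levels were 316 ± 44.2 CPM in WT and 254 ± 30.6 CPM in T348I (SD over 4 and 5 samples), with a log2 fold change of -0.36 (SE 0.0399, 95% interval -0.45 to -0.28, edgeR adjusted p = 5.33e-07), a change of -22.2%. In a model without the set term the log2 fold change of EGFR was -0.31 and the call was lost (edgeR adjusted p = 0.0821).

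ERBB2, the receptor without a ligand of its own, changed least. Its level was 115, 110 and 112 CPM in the WT dasatinib samples and 141 CPM in the WT Dasa sample. For T348I the dasatinib samples had 101, 99.6 and 103 CPM and the Dasa samples 124 and 125 CPM. As for EGFR, T348I was below WT within each set, while the Dasa samples of T348I lay above the dasatinib samples of WT. Mean ERBB2 levels were 119 ± 14.2 CPM in WT and 111 ± 12.9 CPM in T348I (SD over 4 and 5 samples), and the log2 fold change was -0.16 (SE 0.0351, 95% interval -0.23 to -0.087, edgeR adjusted p = 0.00105) , a change of -10.5%. Without the set term the call was lost (log2 fold change -0.11, edgeR adjusted p = 0.501). The gene lies at chr17:39687914-39730426 on the plus strand and overlaps PGAP3 and MIEN1 on the minus strand. Opposite-strand reads were 11.0% to 21.4% of its sense reads, against at most 2.63% for the other 5 tested genes. ERBB4, a receptor for neuregulins and some EGFR ligands (chr2:211375717-212538841, minus strand), had 4 reads in WT and 2 in T348I.

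**Figure D2:**
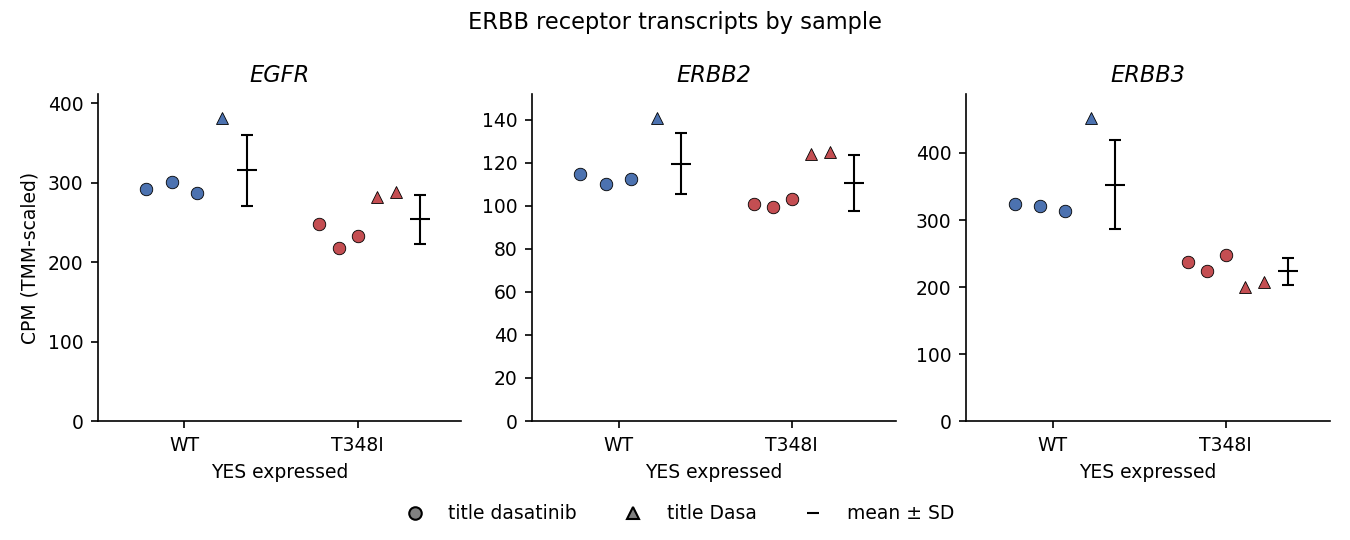
Level of each tested receptor in each sample, in CPM on a linear axis, by group and by spelling of the drug in the title, with the mean and SD of each group. ERBB3 is lower in all 5 T348I samples than in all WT samples, whereas for EGFR and ERBB2 the Dasa samples lie higher in both groups and the groups are apart only within a set.

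The difference between T348I and WT was set against itself in the 2 sets, since the dasatinib set holds 3 samples of each group and the Dasa set 1 WT and 2 T348I samples. With the dasatinib set alone, where 35.6% of 14168 genes tested were called, 18.5% higher and 17.1% lower, the same 3 ligands were called higher and the same 3 receptors lower. Their log2 fold changes were 1.71 for HBEGF (edgeR adjusted p = 1.12e-12), 1.02 for AREG (1.03e-21) and 0.81 for EREG (8.33e-20). For the receptors they were -0.43 for ERBB3 (1.56e-11), -0.33 for EGFR (2.09e-08) and -0.15 for ERBB2 (0.00417). The calls of EGFR and ERBB2 were thus kept within the set that has replicates in both groups.

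In 3 of the 6 genes the fold differed between the sets by the interaction test, which called 7.33% of all genes tested, 3.14% with the higher log2 fold change in the Dasa set and 4.19% with the lower. ERBB3 had a log2 fold change of -1.15 in the Dasa set and -0.44 in the dasatinib set, a difference of -0.72 (SE 0.0655, edgeR adjusted p = 1.12e-09). HBEGF had 2.93 against 1.71, a difference of 1.23 (SE 0.263, adjusted p = 0.00184), which is 7.64-fold against 3.26-fold. For EREG it was 1.204 against 0.80, a difference of 0.40 (SE 0.0638, adjusted p = 2.97e-05). All 3 differences go in the direction of a larger change in the Dasa set. Samples of that set also had the higher mitochondrial share, and its T348I samples the higher YES1 levels, given above. The part of either in these differences was not tested. Each difference rests on the single WT Dasa sample. That sample has no replicate, so its spread is assumed to be that of the other groups. The other 3 genes did not pass the test: the 95% interval of the difference was -0.069 to 0.22 for AREG, -0.22 to 0.056 for EGFR and -0.16 to 0.12 for ERBB2.

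**Figure D3:**
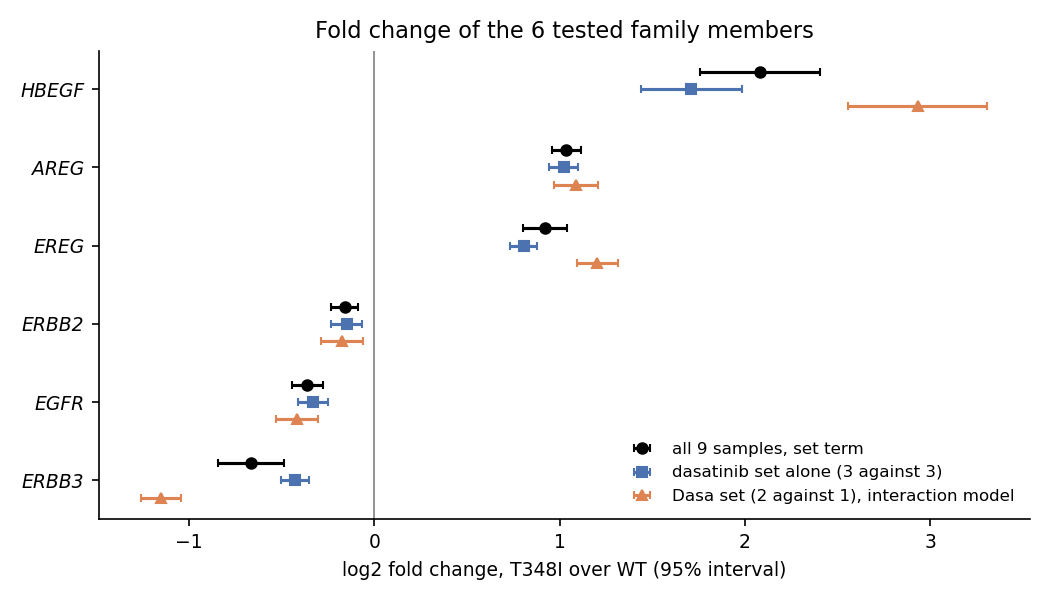
Log2 fold change of T348I over WT for the 6 tested genes with 95% intervals, from all 9 samples with a set term, from the dasatinib set alone and, by the model with an interaction, in the Dasa set. The intervals of the 2 sets are apart for HBEGF, EREG and ERBB3 and overlap for AREG, EGFR and ERBB2.

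Levels were also compared between the sets. Adjusted for genotype, 58.6% of all genes tested differed between the sets, 29.7% higher and 29% lower in Dasa samples. EGFR (log2 difference 0.33, edgeR adjusted p = 1.84e-06) and ERBB2 (0.31, adjusted p = 7.24e-07) were higher in the Dasa samples, in WT and in T348I alike. AREG did not pass the test (-0.063, adjusted p = 0.172). For HBEGF, EREG and ERBB3, whose folds differed between the sets, a single set difference does not describe both groups. HBEGF and EREG in the Dasa set were below the other samples in WT and above them in T348I, and ERBB3 was above them in WT and below them in T348I.

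To compare genes with one another, levels were divided by the length of each gene's exons, as CPM per kilobase (RPKM). AREG was the highest of the family in both groups, at a level of 79.8 ± 3.45 RPKM in WT (SD, n = 4) and 162 ± 5.53 RPKM in T348I (SD, n = 5). EREG followed with 49.5 ± 2.98 and 94.9 ± 8.82 RPKM, then ERBB3 with 39.0 ± 7.34 and 24.7 ± 2.24 RPKM and EGFR with 25.2 ± 3.53 and 20.3 ± 2.45 RPKM. ERBB2 had 11.6 ± 1.38 and 10.7 ± 1.25 RPKM, and HBEGF, despite the largest fold change, only 1.12 ± 0.144 and 5.20 ± 1.94 RPKM. The order of the 6 was the same in both groups. With the longest transcript as length the level of ERBB2 was 24.2 RPKM in WT and 22.4 RPKM in T348I. With exon length, neighbours in the order overlapped in range at 2 places: EREG and ERBB3 in WT, where the highest ERBB3 sample had 49.99 RPKM, and ERBB3 and EGFR in T348I. The means of BTC, TGFA, EPGN and ERBB4 were at most 0.131 RPKM.

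**Figure D4:**
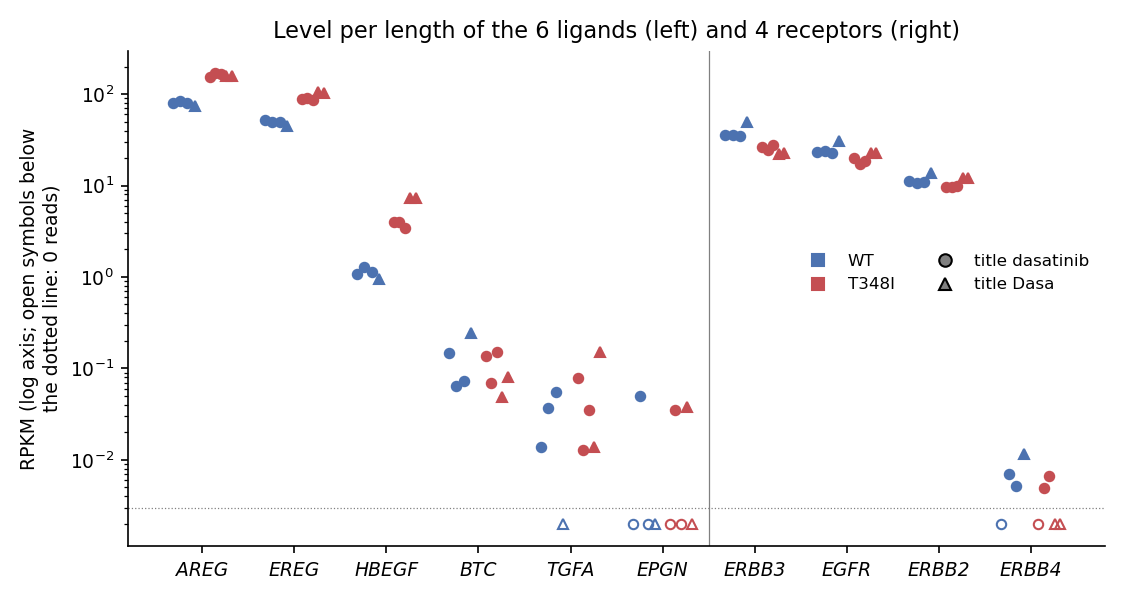
Level per length of the 10 genes in each sample, in RPKM on a logarithmic axis, by group and spelling of the drug, with samples at 0 reads as open symbols below the dotted line. AREG and EREG lie above all receptors in T348I, HBEGF lies below EGFR, ERBB2 and ERBB3, and TGFA, BTC, EPGN and ERBB4 lie near the bottom.

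Summed over the ligands, the level per length was 131 ± 6.02 RPKM in WT (SD, n = 4) and 263 ± 10.1 RPKM in T348I (SD, n = 5). Over the receptors the sum was 75.8 ± 12.2 and 55.7 ± 2.35 RPKM. The ratio of ligand to receptor RNA was 1.29 to 1.93 in the WT samples and 4.44 to 5.11 in the T348I samples, a description of the same levels for which no test was made. AREG held a mean of 61.1% of the ligand sum in WT and 61.9% in T348I, EREG 37.9% and 36.1%, and HBEGF 0.858% and 1.97%. ERBB3 held 51.3% of the receptor sum in WT and 44.5% in T348I, EGFR 33.3% and 36.3%, and ERBB2 15.3% and 19.2%. ERBB3 was thus the main receptor transcript per length in WT. The ratio of EGFR to ERBB3 was 0.609 to 0.676 in WT and 0.680 to 0.752 in the T348I dasatinib samples, and 1.02 and 1.003 in the T348I Dasa samples. With the longest transcript as length this ratio was 0.509 to 0.564 in WT and 0.567 to 0.851 in T348I.

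For the 3 genes with the largest fold change, the genes with the nearest pattern were taken from 12601 genes by the root mean square difference of centred log2 CPM over the 9 samples. Nearest to HBEGF were SPOCD1 (0.15), the interferon-induced gene IFI6 (0.17) and NT5E (0.17), which encodes the ecto-nucleotidase CD73. Among those nearest to AREG were LRP10 (0.058) and the interferon-induced membrane protein gene IFITM3 (0.10). EREG had PPP1R18 (0.055), the death-domain receptor gene TNFRSF21 (0.059) and PHLDA1 (0.065). AREG and EREG were not among each other's 3 nearest genes.

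Genes that act on the ligands were counted next. The other ligands of the family, EGF and the neuregulins NRG1 to NRG4, were all below the filter: over the WT and T348I samples NRG2 had 26 and 44 reads, NRG4 38 and 22, and EGF, NRG1 and NRG3 at most 2 in a group. NRG4 was called lower only where the filter on low counts was dropped (log2 fold change -1.07, edgeR adjusted p = 0.0401), and not by DESeq2 (adjusted p = 0.148). Of 10 genes of ligand shedding 7 were tested, and 3 were higher and 1 lower in T348I, beside 20.7% and 21.8% of all genes tested. The median log2 fold change was 0.024 in this list and -0.0077 over all genes tested. ADAM17, the main sheddase of AREG, EREG and HBEGF, stood at 105 ± 6.76 CPM in WT and 103 ± 4.19 CPM in T348I and did not pass the test (log2 fold change -0.013, edgeR adjusted p = 0.836). ADAM10, the other main sheddase, had a log2 fold change of 0.024 (adjusted p = 0.622). The genes that passed were FRMD8 (0.29, adjusted p = 4.29e-05) and RHBDF2 (0.17, adjusted p = 0.0192), which encode partners of ADAM17, the protease gene ADAM9 (0.12, adjusted p = 0.00868), and RHBDF1, an iRhom gene like RHBDF2, which was lower (-0.28, adjusted p = 0.000314). Without the set term only FRMD8 of these 4 was called, and RHBDF2 was also lost by DESeq2 (adjusted p = 0.0857), with no filter on low counts (0.0576) and without the first WT dasatinib sample (0.0725).

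Genes that restrain or degrade the receptors included the largest change among the pathway genes counted here. ERRFI1, which encodes MIG6, an inhibitor that binds the EGFR kinase domain, had a level of 192 ± 3.13 CPM in WT and 598 ± 126 CPM in T348I (SD over 4 and 5 samples) and rose by 1.56 on the log2 scale (SE 0.0659, edgeR adjusted p = 4.13e-13). Its fold was larger in the Dasa set (1.91 against 1.41, interaction adjusted p = 1.99e-06). In this list of 18 genes 17 were tested, 7 were higher and 1 lower, beside 20.7% and 21.8% of all genes tested. The median log2 fold change of the list was 0.045. CBL, a ubiquitin ligase that marks EGFR for degradation, rose by 0.28 (adjusted p = 8.92e-05), the receptor phosphatase gene PTPRJ by 0.32 (adjusted p = 0.000261) and the endosomal sorting gene STAM by 0.31 (adjusted p = 0.00141). STAM had a log2 fold change of 0.18 without the WT Dasa sample. The 1 gene called lower was LRIG1, which encodes a membrane protein that promotes receptor degradation, named after its values were seen (log2 fold change -0.22, adjusted p = 0.0312). That call was lost by DESeq2 (adjusted p = 0.0909), without the set term and on leaving out any 1 of 5 samples (edgeR adjusted p = 0.0531 to 0.095). Without the set term 3 of the 7 higher calls were kept, with PTPRJ and STAM lost.

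Among adaptors that couple the receptors to RAS, SHC1 was higher and GRB2, SOS1 and SOS2 were lower in T348I. All 11 genes of this list were tested, 1 was called higher and 6 lower, beside 20.7% and 21.8% of all genes, with a median log2 fold change of -0.21. The lower calls numbered 5 by DESeq2 and in the dasatinib set alone, and 4 without the set term. SHC1, whose product docks on phosphorylated EGFR, rose from 255 ± 20.6 CPM to 435 ± 87.9 CPM, a log2 fold change of 0.69 (SE 0.048, edgeR adjusted p = 7.59e-10). By the model with an interaction, the log2 fold change of SHC1 was 0.60 in the dasatinib set. It was 0.90 in the Dasa set, which has a single WT sample. GRB2, which binds SHC1 and the receptor, fell from 312 ± 30.2 CPM to 243 ± 30.8 CPM (-0.31, adjusted p = 3.77e-07). The RAS exchange factor genes SOS1 (-0.41, adjusted p = 1.15e-07) and SOS2 (-0.25, adjusted p = 0.000683) fell as well.

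In the cascades downstream, MAP2K1 was higher and BRAF, MAP2K2 and PIK3R3 were lower. Of 10 tested genes of the RAS to ERK cascade 1 was higher and 3 were lower, a share near the 42.5% called among all genes, with a median log2 fold change of -0.087. The higher gene was the MEK gene MAP2K1 (0.18, edgeR adjusted p = 0.00123), and those lower included the other MEK gene, MAP2K2 (-0.15, adjusted p = 0.00218), and the RAF gene BRAF (-0.35, adjusted p = 9.01e-05). MAP2K1 lost its call without the set term (adjusted p = 0.504). In the PI3K to AKT branch 8 of 10 genes were tested and 2 were lower, beside 21.8% of all genes tested, with a median of -0.019. The genes called lower included the regulatory subunit gene PIK3R3 (-0.43, edgeR adjusted p = 0.000511). By edgeR 0 genes of the branch were called higher, by DESeq2 also 0, and 1 had an unadjusted p under 0.05.

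**Figure D5:**
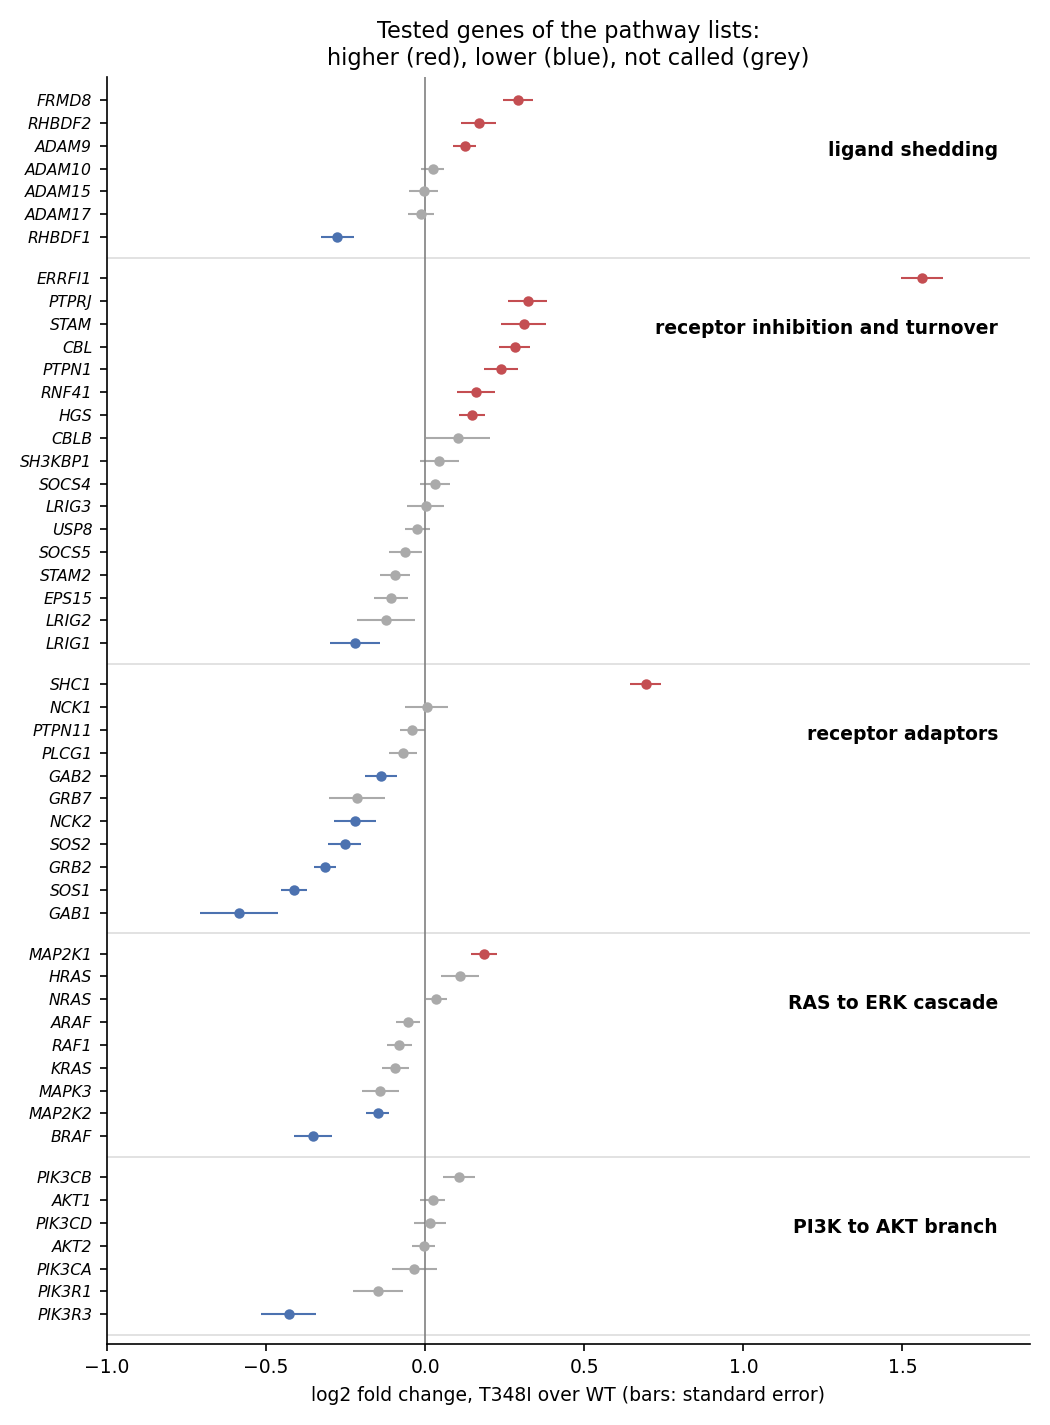
Log2 fold change of T348I over WT, with standard errors, for tested genes of the 5 lists of pathway genes, coloured by whether edgeR called it higher, lower or neither. ERRFI1 at 1.56 and SHC1 at 0.69 lie to the right of all the others, and 6 of the 11 adaptors lie on the lower side as called.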

How the data were processed

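Libraries were stranded and made from polyadenylated RNA, per the labels' protocols. The authors deposited raw read counts per gene, 1 table per sample. The submitters' processing notes name STAR 2.5.1b, Trimmomatic 0.35, CASAVA 1.8.2 and build GRCh38. Which annotation release was counted is not given in the sources used here. Of the unstranded and strand-specific columns in each table, the sense column was used. The antisense column held 5.48% to 5.91% as many gene reads. Rows for unmapped, multimapped, ambiguous and no-feature reads held 22.2% to 29.8% of reads and entered neither library sizes nor tests, so genes with near-identical copies are undercounted.

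Genes passing filterByExpr entered edgeR 4.0.16 under R 4.3.3 (TMM scaling, quasi-likelihood, set and group as terms, Benjamini-Hochberg over all genes tested, threshold 0.05). Differences between the sets were tested by a set-by-group interaction. Standard errors came from the fold and the F statistic. CPM used TMM-adjusted library sizes, and RPKM divided CPM by the exon union of GENCODE 29. In this annotation 57836 of the 58219 identifiers were found, 55008 with the same version. Coordinates are given for these only, so none is given for ERBB3. The RPKM, shares and ratios of ERBB3 still use its exon length in GENCODE 29, where its version differs. The edgeR steps were tested on simulated data. No 2 samples of a group and set were duplicates: chi-square per gene between their counts was 1.44 to 2.88.

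The members and gene lists were chosen with earlier results of these data known. Genes named beside the members were, per list, up to 4 called genes with the smallest p, and the 3 nearest genes to each of the 3 members with the largest change, among genes whose log2 CPM averaged 1 or more. Some genes that this rule picks are not reported here or drawn. Alternatives were DESeq2 1.42.0, upper quartile scaling, no filter, no set term, the dasatinib set alone, counts without regard to strand, a replicate block, the longest transcript as gene length, and leaving out each sample in turn.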

Additional observations from a re-analysis of the deposited data

Results flagged for a closer look

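In 3 receptor genes the WT sample titled Dasa stood apart from the other 3 WT samples by the gap test for a single extreme value (Dixon): EGFR at 381 CPM, ERBB2 at 141 CPM and ERBB3 at 452 CPM. This test was run on 12 groups of values, and chance marks about 1 in 20, or 5%. For EGFR and ERBB2 the T348I Dasa samples were also higher than the T348I dasatinib samples, and for ERBB3 they were lower.

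The change from WT to T348I differed between the sets for 3 genes by the interaction test in edgeR. The difference of log2 fold changes, Dasa minus dasatinib, was -0.72 for ERBB3, 1.23 for HBEGF and 0.40 for EREG. The Dasa set holds a single WT sample, and the cause of these differences was not tested.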

How the results depend on the processing

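Without the set term 2350 genes were called in place of 6212, and 1 of the receptors (ERBB3) was called lower in place of 3. The cause was not tested. Otherwise the counts of 3 ligands higher and 3 receptors lower were the same under every alternative run. Of 96 folds of the 6 genes under 16 alternatives, 94 kept direction and call, 2 lost the call (EGFR and ERBB2 without the set term) and 0 reversed. Of 304 such folds of 19 other pathway genes, 288 kept both, 16 lost the call and 0 reversed; these 16 concern RHBDF1, RHBDF2, ADAM9, PTPRJ, STAM, MAP2K1 and LRIG1. Leaving out each sample in turn gave 5131 to 5925 called genes, HBEGF at 1.71 to 2.19 and ERBB3 at -0.72 to -0.43. The value nearest to 0 came in both cases without the WT Dasa sample. The set term then takes up the T348I Dasa samples, so these 2 values come from the dasatinib samples. LRIG1 lost its call without the WT dasatinib replicates 1 or 3, the T348I dasatinib replicates 2 or 3 or the T348I Dasa replicate 1 (edgeR adjusted p = 0.0531 to 0.095). Without the first WT dasatinib sample 1 gene of the PI3K to AKT branch was called higher. DESeq2 called 4916 genes. The 3 differences between sets were called in all 12 alternatives that could be fitted; without the WT Dasa sample none could.

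Replicate numbers are shared between the groups of the dasatinib set, but same-numbered samples did not deviate together (r across genes -0.00775, -0.0763 and 0.00328). Deviations from a mean of 3 samples also hold counting noise, so these values cannot show whether same-numbered samples were prepared together. With a replicate block 5372 genes were called, and the 3 ligands and 3 receptors kept their calls, with HBEGF at 2.04 and ERBB3 at -0.62.

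With the length of the longest transcript the levels per length were higher and the order of the 6 means was the same. In WT and T348I, AREG had 106 and 216 RPKM, ERBB3 59.6 and 37.8 RPKM, and ERBB2, which moved most, 24.2 and 22.4 RPKM. ERBB2 then held 21.0% and 26.0% of the receptor sum, and the ratio of ligand to receptor RNA was 1.095 to 1.63 in WT and 3.75 to 4.28 in T348I. Depth limits TGFA, BTC, EPGN and ERBB4, which had at most 20 reads in a group.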
